A study of Mus musculus with 12 samples.

Results

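The genes described here are 7 effectors of Notch signaling, namely the *Hes* genes *Hes1*, *Hes5* and *Hes6*, the *Hey* genes *Hey1*, *Hey2* and *Heyl*, and *Nrarp*. They were chosen by name from the 27754 gene entries of the table, and all 7 were present. RNA was sequenced from the 2 cochleae of single neonatal mouse pups of a mixed C57BL/6 and CD1 background, and the cochlear epithelium had been freed from mesenchyme and neurons with Cell Recovery Solution. The question was how these genes respond when the Wnt effector β-catenin is stabilized, and whether the response depends on age.

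All pups carried the β-catenin-flox(Exon3)/+ allele, from which Cre removes the exon needed for β-catenin breakdown, and all were exposed to tamoxifen through the milk of the mother. Treated pups also carried Sox2-CreER/+, so that Cre acted in SOX2+ cells alone, while untreated pups were littermates without Cre. The Cre allele is a knock-in that lowers *Sox2* itself. P1 libraries came from pups exposed on day 1 and harvested on day 4, and P4 libraries from pups exposed on day 4 and harvested on day 7, in each case 72 h later. Each library came from 1 pup, and there were 3 for each group but P4 treated, which had 2. P4 treated replicate 2 was not analysed here.

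When a Delta or Jagged ligand on a neighboring cell binds a Notch receptor, γ-secretase frees the intracellular domain of the receptor, which joins the DNA-binding protein RBPJ and Mastermind in the nucleus and switches target genes on. HES and HEY proteins are basic helix-loop-helix repressors that are well-known direct targets. In the cochlea they are known for holding supporting cells back from the hair cell fate, in large part by repressing *Atoh1*, the gene that starts hair cell formation. Several of them also answer to other signals, such as the fibroblast growth factor input to *Hey2* in pillar cells.

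The 7 genes lie on 6 chromosomes of GRCm38, the assembly of mm10, and are all annotated as protein coding in GENCODE M21. *Hes1* lies at chr16:30064384-30067796 on the plus strand, *Hes5* at chr4:154960923-154962371 on the plus strand and *Hes6* at chr1:91411483-91414038 on the minus strand. *Hey1* lies at chr3:8663359-8667256 and *Hey2* at chr10:30832359-30842801, both on the minus strand, and *Heyl* at chr4:123233556-123249875 and *Nrarp* at chr2:25180758-25183339, both on the plus strand. Only *Hes5* and *Heyl* share a chromosome.

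RefSeq promoters of 4 of the 7 genes, *Hes5*, *Hes6*, *Hey2* and *Nrarp*, were in the reference table used here (GRCm38). The 250 bases before the start of transcription are shown for *Hes5*, *Hey2* and *Nrarp*. The fitted difference with treatment was negative for *Hes5* and positive for *Hey2* and *Nrarp* at both ages, but none was called. The windows of *Hes6*, whose fitted difference changed sign between the ages, are not shown. Capitals mark the core letters of an RBPJ site, TGGGAA or its reverse complement. The windows are chr4:154960673-154960922 on the plus strand for *Hes5*, chr10:30842784-30843033 on the minus strand for *Hey2* and chr2:25180508-25180757 on the plus strand for *Nrarp*.

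Hes5: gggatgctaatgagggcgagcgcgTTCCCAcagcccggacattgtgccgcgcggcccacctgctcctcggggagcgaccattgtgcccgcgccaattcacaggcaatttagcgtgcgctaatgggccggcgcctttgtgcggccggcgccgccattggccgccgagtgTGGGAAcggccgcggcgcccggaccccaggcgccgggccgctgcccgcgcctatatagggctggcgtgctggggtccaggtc

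Hey2: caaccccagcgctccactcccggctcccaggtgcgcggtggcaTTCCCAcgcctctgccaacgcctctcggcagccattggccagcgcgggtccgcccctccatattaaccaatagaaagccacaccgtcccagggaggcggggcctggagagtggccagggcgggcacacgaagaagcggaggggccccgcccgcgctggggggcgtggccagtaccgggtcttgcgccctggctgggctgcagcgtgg

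Nrarp: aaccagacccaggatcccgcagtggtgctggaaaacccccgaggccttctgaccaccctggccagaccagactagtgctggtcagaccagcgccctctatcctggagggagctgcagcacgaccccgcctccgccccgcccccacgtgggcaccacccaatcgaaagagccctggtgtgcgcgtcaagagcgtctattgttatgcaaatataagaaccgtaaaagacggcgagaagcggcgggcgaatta

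The core letters stood in *Hes5* at 226 to 221 bases before the start on the minus strand and at 82 to 77 bases before it on the plus strand. In *Hey2* they stood once, at 207 to 202 bases before the start on the minus strand. They were not among the letters of the *Nrarp* window or of either of the 2 *Hes6* windows. Of 32841 promoter windows of the same length in the table, 21.6% held them. The TCF/LEF letters ATCAAAG, through which β-catenin acts on DNA, were in none of these windows and in 3.21% of all. The E box CANNTG, which basic helix-loop-helix proteins bind, was in all 5 windows of the 4 genes and in 66.2% of all windows. The N box CACNAG, which HES proteins prefer, was found on the minus strand of *Nrarp* at 179 and at 79 bases before the start, in 1 of the *Hes6* windows, and in 36.7% of all windows. Both strands were searched, and a letter match is no evidence of binding.

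The table holds normalized counts, which the authors had scaled to make libraries comparable and rounded to whole numbers. Their sums were 41.2 to 44.2 M per library. P1 treated replicate 2 had the lowest weight when libraries were weighted by their spread, 0.482 against 0.708 to 1.53 in the others. The X-inactivation transcript *Xist*, which marks female cells, was at 13 to 26 in P1 treated and 32 to 39 in P4 untreated libraries, at 3268 and 4180 in both P4 treated libraries, and at 16, 3030 and 2794 in P1 untreated libraries. At P4, sex and treatment therefore cannot be told apart. *Ctnnb1*, which encodes β-catenin, was at 24107 to 25048 in P1 treated and 19820 to 25308 in P1 untreated libraries, but counts per gene do not show the loss of an exon.

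Per kilobase of exon, *Hey1* had the highest level of the 7 genes in 11 of 11 libraries. Its mean was 2488 normalized counts per kb in P1 untreated and 3386 in P4 untreated libraries. *Hes6*, which encodes a HES protein that opposes HES1 and is made in differentiating hair cells, came next in untreated libraries, at 1418 and 1500 per kb. *Hes5* and *Hey2* were the lowest, and 1 of these genes was at the bottom in every library, *Hes5* in 6 and *Hey2* in 5. *Heyl* ranked above *Hes6* in P4 treated libraries, at 1507 against 1277 per kb, and below it in P4 untreated libraries, at 1032 against 1500 per kb.

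Each gene was compared as log2(normalized count + 1) with limma, in a fit of all libraries in which the 4 groups shared an estimate of the spread and 18400 genes with a mean of at least 10 were tested. All 7 genes passed this minimum. A gene counted as called when its adjusted p was under 0.05 and its log2 fold change was over 0.32 either way, the fold used in the study. Within groups, *Hes5* scattered most, with an SD of 0.84 on the log2 scale against a median of 0.23 over all tested genes. *Hes6* scattered least, at 0.08.

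The order of the 4 groups differed from gene to gene. *Hes1* was highest in P1 treated libraries, followed by P1 untreated, P4 treated and last P4 untreated libraries, and only the step between the ages was free of overlap. *Hey1* had the reverse order, and only its step from P4 untreated to P4 treated libraries was free of overlap. *Hey2* fell from P4 treated to P1 treated to P4 untreated to P1 untreated libraries, with overlap in the last step alone. *Heyl* put both treated groups, which overlapped each other, above both untreated groups, which also did. For *Nrarp* each group overlapped the next, and for *Hes5* and *Hes6* only the last group, P4 treated, stood apart from the one above it.

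**Figure D1:**
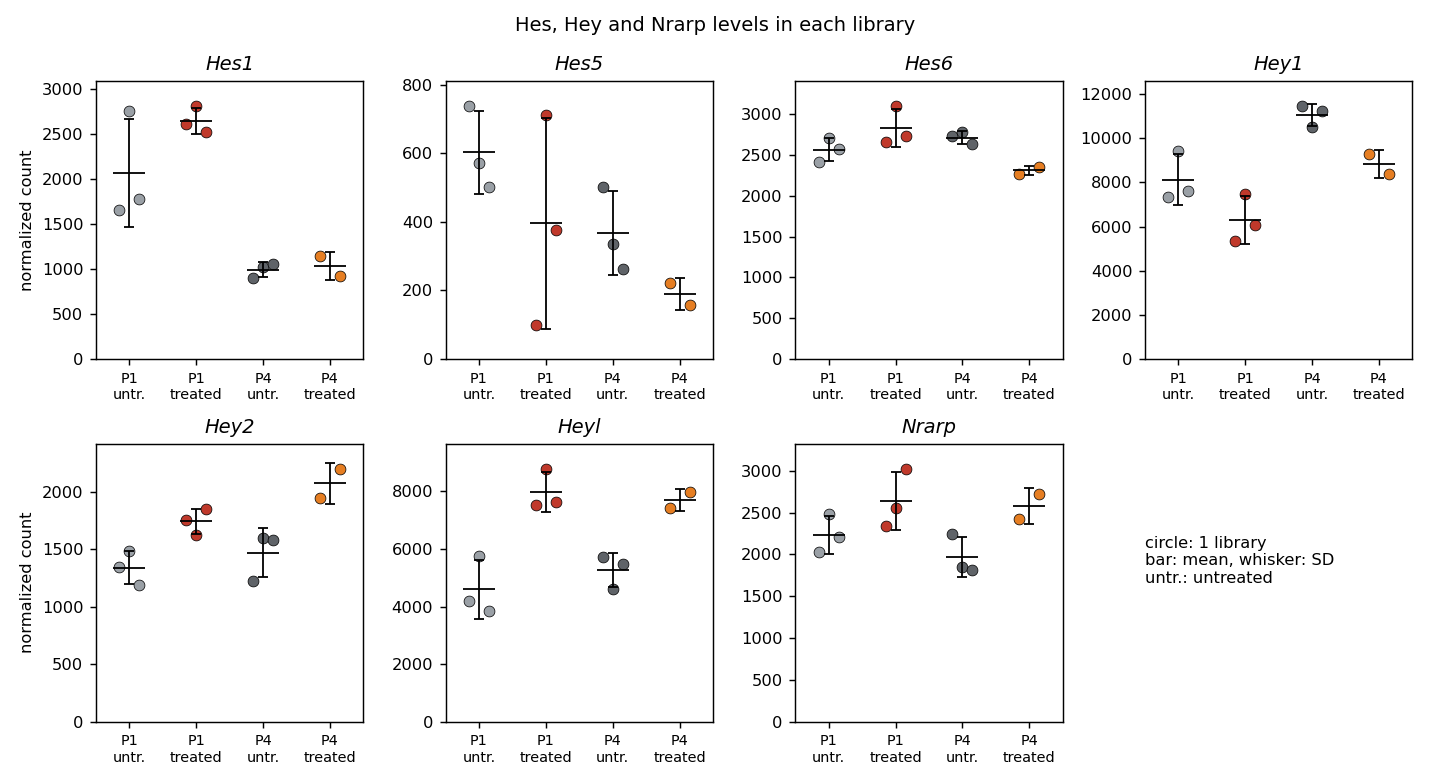
Normalized count (vertical axes, from 0) of each of the 7 genes in each of the 11 libraries, by group, with the mean and SD. *Heyl* and *Hey2* lay higher in treated than in untreated libraries at both ages without overlap, *Hes1* lay higher at P1 than at P4, and *Hes5* spread from 99 to 712 among P1 treated libraries.

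After treatment at P1, *Heyl* had the largest difference relative to its error, but neither it nor any other of the 7 genes was called. *Heyl*, which encodes a HEY repressor also made in vascular smooth muscle, was at 7533, 8774 and 7628 normalized counts in P1 treated libraries and at 4191, 5771 and 3844 in P1 untreated libraries. Every treated library lay above every untreated one. The means were 7978 ± 691 and 4602 ± 1027 (SD, n = 3 each), a log2 fold change of 0.81 (standard error, SE, 0.144, 95% interval 0.49 to 1.13, adjusted p = 0.0523 from limma). The adjusted p was 0.0394 without P1 treated replicate 1 and 0.0107 without P1 untreated replicate 2, the highest untreated library, and it was 0.0468 with median-of-ratios and 0.0482 with quantile scaling. It rose to 0.115 and 0.159 without P1 treated replicates 2 and 3, to 0.146 and 0.202 without P1 untreated replicates 1 and 3, to 0.104 with the replicate block, 0.139 with eBayes without trend and 0.205 with only the groups compared. With log2 *Xist* as a covariate the log2 fold change was 0.91 and the adjusted p 0.386.

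*Hey2*, which encodes the HEY repressor of pillar cells, was at 1754, 1628 and 1848 normalized counts in P1 treated and at 1350, 1481 and 1191 in P1 untreated libraries. These groups did not overlap either. The log2 fold change was 0.38 (SE 0.125, adjusted p = 0.25 from limma). *Hey1*, made in supporting cells and in their progenitors, went the other way on average, with 5350, 7469 and 6068 in P1 treated and 7323, 9438 and 7609 in P1 untreated libraries. Treated replicate 2 lay above untreated replicate 1, so the groups overlapped, and the log2 fold change of -0.37 (SE 0.128) had an adjusted p of 0.276.

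*Hes1*, a HES target of Notch in many tissues, was at 2605, 2806 and 2517 in P1 treated and 1658, 2751 and 1779 in P1 untreated libraries. Untreated replicate 2 lay within the treated range while the other untreated libraries were lower, and the log2 fold change was 0.39 (SE 0.174, adjusted p = 0.4). Without that library it was 0.62 (adjusted p = 0.111 from limma). *Hes5*, the HES target of Deiters cells, was at 99, 712 and 376 in P1 treated and 737, 571 and 501 in P1 untreated libraries. The treated libraries spanned more than the untreated ones, and the log2 fold change of -0.99 had a 95% interval from -2.26 to 0.28. It was -0.20 without P1 treated replicate 1, the library at 99, and -1.62 without replicate 2, the one at 712. *Nrarp*, which encodes a feedback inhibitor that binds the Notch intracellular domain, had a log2 fold change of 0.23 (adjusted p = 0.511), and *Hes6* one of 0.14 (adjusted p = 0.546).

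Of the 7 genes, 2 did not overlap between the P1 groups, beside 15.3% of all tested genes. None was called, beside 0.261% of all genes called higher and 0.0924% called lower in P1 treated libraries by limma. At an unadjusted p under 0.05, 4 of the 7 genes passed, *Heyl*, *Hey2*, *Hey1* and *Hes1*, beside 2241 of 18400 genes.

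After treatment at P4, *Heyl*, *Hey2* and *Nrarp* were higher and *Hey1*, *Hes6* and *Hes5* lower in both treated libraries than in any untreated one, and again none was called. *Heyl* was at 7433 and 7981 in P4 treated and at 5724, 4616 and 5483 in P4 untreated libraries, a log2 fold change of 0.55 (SE 0.161, adjusted p = 0.285 from limma). *Hey2* was at 1947 and 2198 against 1227, 1599 and 1584 (log2 fold change 0.50, SE 0.14, adjusted p = 0.275). For both genes the difference had the same sign as at P1. The paper, with DESeq2, reports *Heyl* as increased at P4. It reports *Hey2* as increased in vivo at P4 only.

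*Nrarp* was at 2424 and 2729 in P4 treated and at 2247, 1849 and 1815 in P4 untreated libraries, a log2 fold change of 0.39 (SE 0.14, adjusted p = 0.335). *Hey1* was at 9267 and 8383 against 11447, 10499 and 11221, a log2 fold change of -0.33 (SE 0.143, adjusted p = 0.42). Thus the HEY genes did not lie on 1 side, with *Heyl* and *Hey2* above and *Hey1* below the untreated libraries.

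*Hes6* was at 2270 and 2348 in P4 treated and at 2726, 2779 and 2631 in P4 untreated libraries, a narrow gap with a log2 fold change of -0.23 (SE 0.089, adjusted p = 0.362). *Hes5* was at 222 and 157 against 502, 336 and 263, with a log2 fold change of -0.92 and a 95% interval from -2.34 to 0.50. *Hes1* overlapped, at 1143 and 919 against 900, 1020 and 1055, and its log2 fold change was 0.05 (adjusted p = 0.944). Its sign turned without P4 treated replicate 1, to -0.11.

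With 2 treated libraries, groups fail to overlap easily. Of the 7 genes, 6 did not overlap at P4, beside 33.5% of all tested genes. None was called, beside 0.0326% of all genes called higher and 0.0217% called lower by limma, and 5 of the 7 passed an unadjusted p under 0.05, beside 2141 of 18400 genes.

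**Figure D2:**
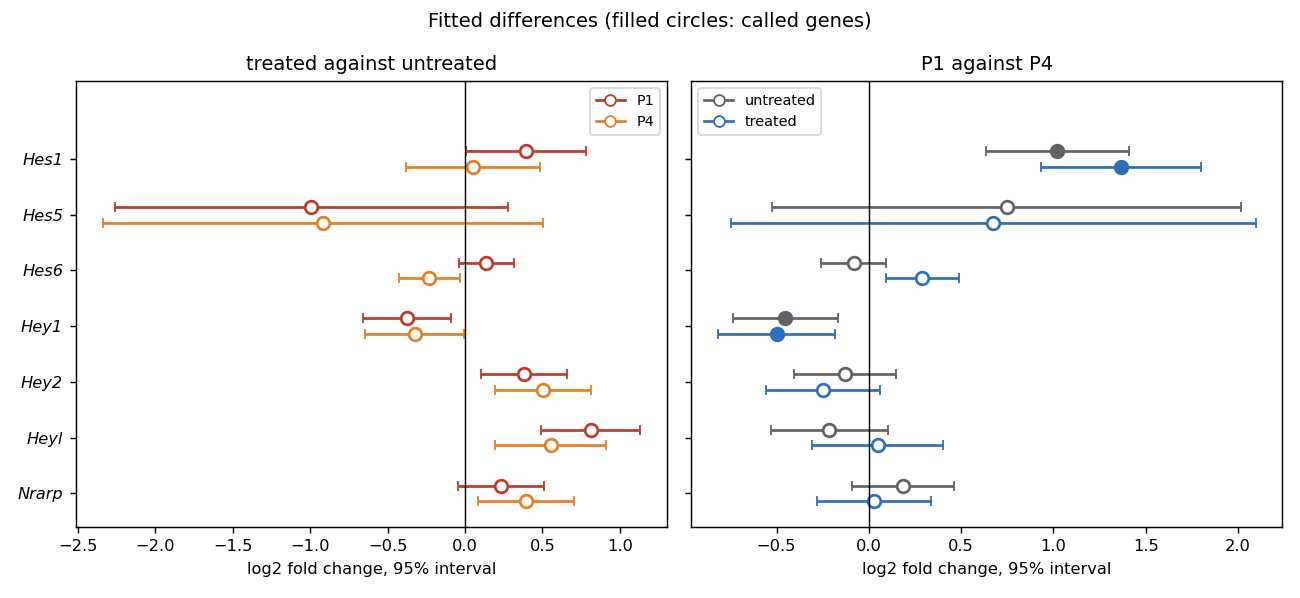
Fitted log2 fold changes (horizontal axes) with 95% intervals for each gene, treated against untreated at P1 and P4 (left) and the earlier against the later age, separately without and with treatment (right). Filled circles are called genes, which were *Hes1*, higher at P1, and *Hey1*, lower at P1, in both comparisons of age, and none in the comparisons of treatment.

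Averaged over both ages, a contrast added after the data were seen, *Heyl* was called higher in treated libraries. Its log2 fold change was 0.68 (SE 0.108, adjusted p = 0.0254 from limma), beside 0.424% of all genes called higher and 0.25% called lower. The call was lost when some single libraries were left out. The adjusted p was then 0.056 without P1 untreated replicate 1, 0.0619 without P1 untreated replicate 3, 0.0808 and 0.106 without P4 treated replicates 1 and 3, and 0.0531 without P4 untreated replicate 2. It was 0.0561 with the replicate block, 0.0761 with eBayes without trend and 0.0491 with log2 *Xist* as a covariate. The next genes were *Hey2* at a log2 fold change of 0.44 (adjusted p = 0.0594), *Hey1* at -0.35 (adjusted p = 0.116) and *Nrarp* at 0.31 (adjusted p = 0.141).

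Whether the effect of treatment differed between ages was tested as an interaction. No gene among 18400 was called by limma (0%), while 1067 genes, *Hes6* among them, had an unadjusted p under 0.05. The effect on *Hes6* at P1 minus that at P4 was 0.37 on the log2 scale (SE 0.119, adjusted p = 0.82). For *Heyl* it was 0.26, with a 95% interval from -0.22 to 0.74, and for *Hey2* -0.12, with an interval from -0.54 to 0.30.

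The share that each gene held of the summed level of the 7 genes per kb is described here with no test. *Heyl* held 19.4% ± 0.853 in P1 treated and 12% ± 1.11 in P1 untreated libraries (SD, n = 3 each), and 19.9% ± 1.2 (SD, n = 2) and 13.3% ± 1.03 (SD, n = 3) at P4. *Hey1* held 23.9% ± 1.48 in P1 treated and 33.5% ± 0.612 in P1 untreated libraries, and 35.6% ± 2.18 and 43.7% ± 0.753 at P4. For both genes no treated library fell within the untreated range of its age. The shares are parts of 1 total and so depend on each other, and the counts of *Hey1* itself overlapped at P1. At P1 the shares of the other genes overlapped, such as that of *Hes6*, with means of 19.5% and 19.3%. At P4 the share of *Hes1* overlapped, with means of 6.67% and 6.29%. Those of *Hes5*, *Hes6*, *Hey2* and *Nrarp* did not overlap at P4, lower in treated libraries for *Hes5* and *Hes6* and higher for *Hey2* and *Nrarp*.

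**Figure D3:**
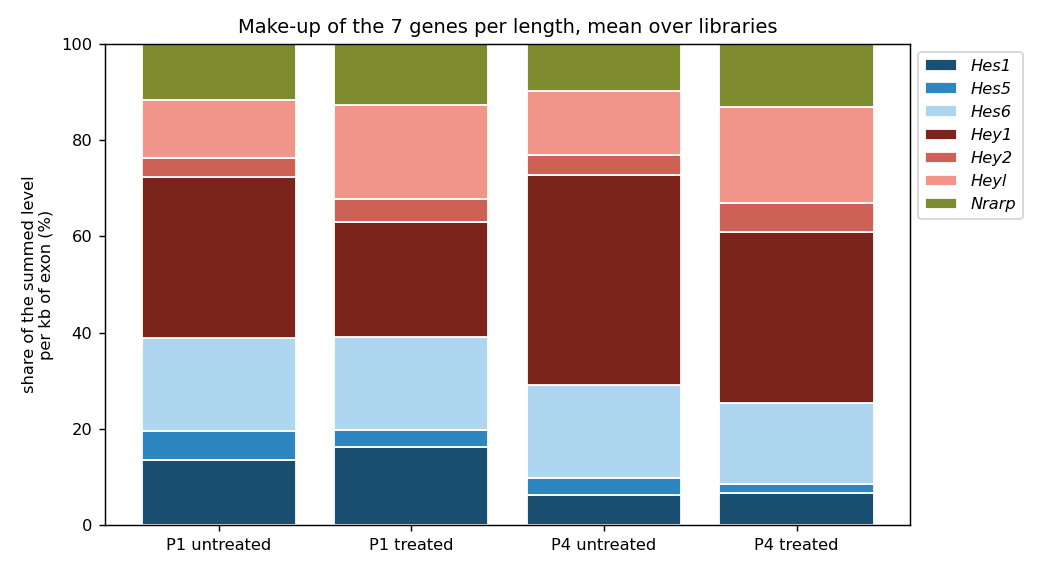
Share of each gene in the summed level of the 7 genes per kilobase of exon (vertical axis, percent), as the mean over the libraries of each group. *Heyl* took 19.4% and 19.9% in P1 and P4 treated libraries and 12% and 13.3% in untreated ones, and *Hes1* took 13.5% in P1 untreated and 6.29% in P4 untreated libraries.

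The ratio of *Heyl* to *Hey1* per kb, a measure chosen after the values were seen and given with no test, does not depend on the scaling of a library. It was 0.899, 0.75 and 0.803 in P1 treated libraries and 0.366, 0.391 and 0.323 in P1 untreated libraries. At P4 it was 0.512 and 0.608 in treated and 0.319, 0.281 and 0.312 in untreated libraries. The treated libraries were above all untreated ones at both ages, with P4 treated libraries between the P1 treated and the untreated ones.

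The ligand gene *Jag1*, which supporting cells express, was at 22245, 31218 and 27014 in P1 treated and 18988, 21216 and 13902 in P1 untreated libraries. At P4 it was at 27554 and 25062 in treated and 19528, 13132 and 17578 in untreated libraries. As for *Heyl*, no treated library overlapped an untreated one of its age, and as for *Heyl* neither difference was called, with log2 fold changes of 0.58 (adjusted p = 0.242 from limma) and 0.67 (adjusted p = 0.294). The paper, with DESeq2, reports *Jag1* as increased at both ages. *Sox2*, the gene that carries the Cre, was at 4930, 5542 and 6006 in P1 treated and 8042, 10170 and 8121 in P1 untreated libraries and was called lower (log2 fold change -0.67, SE 0.101, adjusted p = 0.03). At P4 it was at 7993 and 7577 against 10485, 10101 and 10461 (log2 fold change -0.41, adjusted p = 0.272). Its part in the levels of the 7 genes was not tested.

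**Figure D4:**
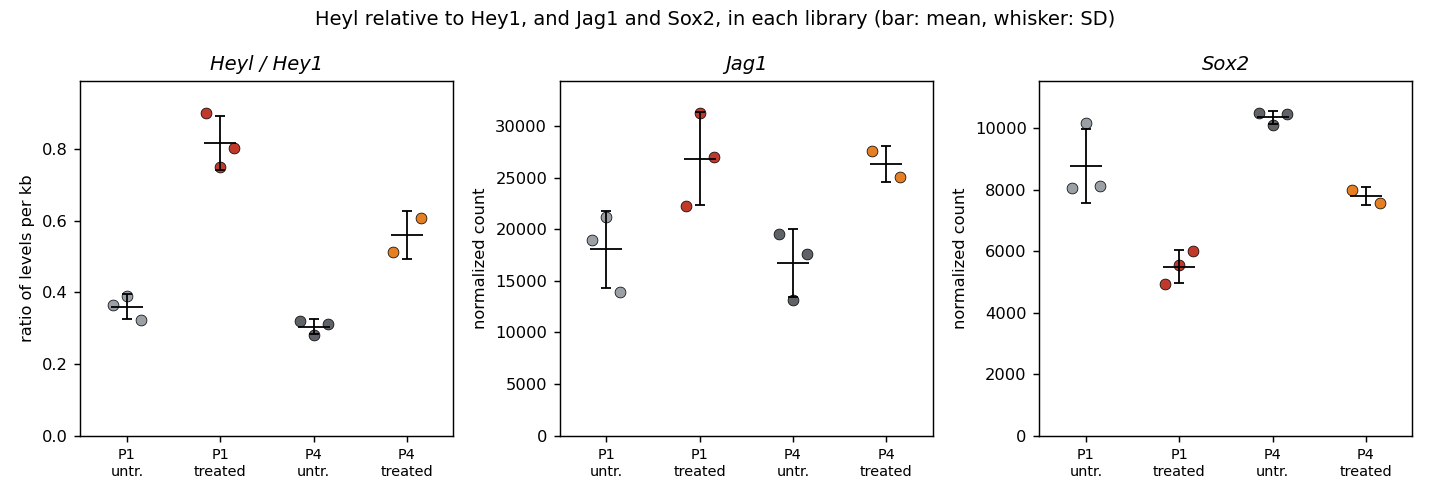
Ratio of *Heyl* to *Hey1* per kilobase (left) and normalized counts of *Jag1* (middle) and *Sox2* (right) in each library, with the mean and SD of each group and vertical axes from 0. The ratio and *Jag1* lay higher, and *Sox2* lower, in treated than in untreated libraries at each age.

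Between the ages, *Hes1* and *Hey1* changed in opposite directions. In untreated libraries *Hes1* averaged 2063 ± 599 in the P1 and 992 ± 81.3 in the P4 libraries (SD, n = 3 each), and the lowest P1 library, at 1658, lay above the highest P4 library, at 1055. The log2 fold change of P1 against P4 was 1.02 (SE 0.174, adjusted p = 0.00294 from limma). In treated libraries it was 1.36 (SE 0.195, adjusted p = 0.00341), with 2643 ± 148 at P1 (SD, n = 3) and 1031 ± 158 at P4 (SD, n = 2). The call held when any single library was left out. With log2 *Xist* as a covariate it held in untreated (adjusted p = 0.0373) but not in treated libraries (adjusted p = 0.0683), where sex and age go together.

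*Hey1* averaged 8123 ± 1147 in P1 untreated and 11056 ± 495 in P4 untreated libraries (SD, n = 3 each), and no P1 library reached the P4 range. It was called lower at P1, with a log2 fold change of -0.45 (SE 0.128, adjusted p = 0.0309 from limma). The call was lost without P1 untreated replicate 1 (adjusted p = 0.105) or 3 (0.0987) and without P4 untreated replicate 1 (0.0855) or 3 (0.0867), and with log2 *Xist* as a covariate (0.0716). In treated libraries the log2 fold change was -0.50 (SE 0.143, adjusted p = 0.0496), and there the adjusted p rose to between 0.0594 and 0.253 when any library but P1 treated replicate 2 and P1 untreated replicate 2 was left out.

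The other genes were not called between ages. *Hes6* was 1.22-fold higher in P1 than in P4 treated libraries without overlap (adjusted p = 0.0631 from limma). *Heyl* was near level, with log2 fold changes of -0.21 in untreated and 0.05 in treated libraries, but without P1 untreated replicate 2 it was called lower in P1 untreated libraries (-0.39, adjusted p = 0.0426). *Hes5* was called higher in P1 treated libraries only without P1 treated replicate 1, the library at 99 (log2 fold change 1.47, adjusted p = 0.0451, against 0.67 and 0.538 with it).

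In untreated libraries 1 of the 7 genes was called in each direction, beside 10.5% of all genes called higher at P1 and 9.38% called lower, and 2 did not overlap, beside 41.3% of all genes. In treated libraries 1 was again called each way, beside 5.63% and 5.42%, and 4 did not overlap, beside 43.1%. Both comparisons of age contain different libraries, but each shares its libraries with a comparison of treatment.

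The other genes of the pathway were read against all genes, of which 0.261% were called higher and 0.0924% lower at P1, and 0.0326% and 0.0217% at P4. At these rates a list of this size would hold close to no call. Of 7 ligand, 4 receptor, 15 nuclear complex, 6 Groucho co-repressor, 14 glycosylation and cleavage and 13 trafficking genes, 0 were called at P1 or at P4 by limma. At an unadjusted p under 0.05, 1, 1, 1, 3, 3 and 1 of them passed at P1, in that order, and 1, 0, 1, 1, 2 and 2 at P4. Over all 59 of them this was 16.9% at P1 and 11.9% at P4, beside 12.2% and 11.6% of all genes. The median log2 fold changes at P1 were 0.16, 0.07, -0.06, -0.16, 0.05 and 0.06 in that order, beside 0.00 over all genes. Over the 7 *Hes*, *Hey* and *Nrarp* genes, which lay on both sides, the median was 0.23 at P1 and 0.05 at P4. *Notch1*, which encodes a receptor of the organ of Corti, was at 8289, 11413 and 9565 in P1 treated and 7985, 6345 and 6408 in P1 untreated libraries, which did not overlap (log2 fold change 0.49, adjusted p = 0.318 from limma). The delta ligand gene *Dll1*, made in nascent hair cells, had a log2 fold change of 0.21 at P1 (adjusted p = 0.882). Of 16 tested genes reported as Notch targets elsewhere, 1 was called, the hyaluronan receptor gene *Cd44*, at 7020 ± 373 in P1 treated and 3361 ± 593 in P1 untreated libraries (SD, n = 3 each). Its log2 fold change was 1.08 (adjusted p = 0.0136). At an unadjusted p under 0.05, 8 of the 16 passed at P1 and 3 at P4, beside 2241 and 2141 of the 18400 genes. Of the *Hes*-related genes outside the 7, *Hes7*, *Bhlhe40* and *Bhlhe41* were tested, and 0 were called by limma at either age, with 0 at an unadjusted p under 0.05 at P1 and 0 at P4.

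Between ages, 10 of these 59 pathway genes were called in untreated libraries (16.9%, beside 19.9% of all genes) and 7 in treated ones (11.9%, beside 11.1%), shares near those of all genes. Of the 14 glycosylation and cleavage genes, 3 were called lower at P1 than at P4 in untreated and in treated libraries alike. These were *Lfng*, which encodes a glycosyltransferase that modifies Notch receptors, and *Adam17* and *Aph1b*, which encode a protease and a γ-secretase subunit. *Lfng* was at 2902, 3589 and 2639 in P1 untreated and 6702, 8554 and 8661 in P4 untreated libraries, a log2 fold change of -1.39 (adjusted p = 0.000155 from limma). Of the 13 trafficking genes, 2 were called higher and 1 lower at P1 in each comparison, with the ubiquitin ligase genes *Neurl1a* (1.06 in untreated and 1.22 in treated libraries) and *Dtx3* (-0.57 and -0.45) called in both, *Nedd4* (0.43) in untreated and *Numbl* (0.36) in treated libraries. Of the 7 ligand genes, *Jag2* was called higher at P1 in untreated (0.76, adjusted p = 0.0412) and *Dll4* in treated libraries (0.95, adjusted p = 0.0444).

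Of the 15 genes listed for the nuclear complex, those called in untreated libraries included *Maml3*, a Mastermind gene, lower in P1 than in P4 libraries (-0.68). *Kyat3* was on that list too and was called higher (0.94), but it encodes a kynurenine aminotransferase and is no known part of the complex. The counts for that list and for the pathway genes as a whole include it. In treated libraries 0 of the 15 were called (5 at an unadjusted p under 0.05). Of the 16 other targets, 2 were higher and 5 lower at P1 in untreated libraries, beside 10.5% and 9.38% of all genes. They were led by *Bcl2* (1.30), *Cdkn1a* (-1.83) and *Gata2* (-0.80). In treated libraries 2 were called each way, beside 5.63% and 5.42% of all genes, led by *Gata2* (-0.61), *Bcl2* (0.80) and *Cdkn1b* (-0.62). Receptors and Groucho co-repressors had 0 called genes in either comparison by limma. In untreated libraries 1 receptor and 1 co-repressor gene had an unadjusted p under 0.05, beside 35.5% of all genes. In treated libraries 0 had, beside 27.5% of all genes. The median over the 7 *Hes*, *Hey* and *Nrarp* genes was -0.08 in untreated and 0.05 in treated libraries.

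*Atoh1*, the gene that HES and HEY proteins repress, was at 278, 515 and 348 in P1 treated, 397, 378 and 244 in P1 untreated, 143 and 138 in P4 treated and 182, 143 and 129 in P4 untreated libraries. It was called higher at P1 in untreated (log2 fold change 1.14, adjusted p = 0.0127 from limma) and in treated libraries (1.38, adjusted p = 0.0168), so that *Atoh1* and *Hes1* were both higher at the earlier age. With treatment it was not called, at 0.15 (adjusted p = 0.895) at P1 and -0.09 (adjusted p = 0.933) at P4. Of 12 tested hair cell fate genes, 0 were called with treatment at either age by limma, and 0 at P1 and 0 at P4 had an unadjusted p under 0.05. In untreated libraries 4 were called higher and 1 lower at P1, with *Ccer2* (3.04) and *Rbm24* (-0.80) among them, and in treated libraries 1 was called each way. Of all genes, 10.5% were called higher and 9.38% lower in untreated, and 5.63% and 5.42% in treated libraries.

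In RNA from whole tissue, fewer cells of a type and less RNA per cell cannot be told apart. *Hey1*, *Hey2* and *Heyl* are also made in blood vessels, and summed markers of these cells tended to lie lower in treated libraries. The sum of 15 endothelial markers was 3203 to 5072 normalized counts in P1 treated and 7667 to 10662 in P1 untreated libraries, and 3047 to 3246 and 3764 to 7237 at P4. That of 12 pericyte and smooth muscle markers was 1482 to 3947 and 4553 to 5071 at P1, and 1159 to 1843 and 1833 to 3550 at P4. The sums overlapped between treatments only for the pericyte markers at P4. None of these markers was at 0 throughout a group. Of the 13 endothelial and 10 pericyte markers tested, 0 were called with treatment by limma. At P1, 5 of each list had an unadjusted p under 0.05, beside 12.2% of all genes. At P4 4 endothelial and 1 pericyte marker did, beside 11.6% of all genes. The part of these cells in the levels of *Heyl*, *Hey2* and *Hey1* was not tested.

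By the labels the RNA was of hair cells and supporting cells, yet transcripts of other cells were present, and 13 neuron markers summed to between 54988 and 116616 normalized counts. The sum of 11 mesenchyme markers overlapped at P1, at 134219 to 210463 in treated and 144976 to 166498 in untreated libraries, while its median log2 fold change was -1.08 and 1 marker, *Lum*, was called higher. At an unadjusted p under 0.05, 7 of the 11 passed at P1, beside 12.2% of all genes. The sum of 14 immune cell markers was 2731 to 4842 in P1 treated and 5478 to 7144 in P1 untreated libraries without overlap, and 4095 to 6702 and 5074 to 7518 at P4. At P1 the median log2 fold change of the immune markers was -0.98. Of the 14, 10 had an unadjusted p under 0.05, beside 12.2% of all genes, while 0 were called by limma. The part of mesenchyme and immune cells in the levels of the 7 genes was not tested. The sum of 18 hair cell markers was 44185 to 53493 in P1 treated, 40227 to 61843 in P1 untreated, 65209 to 73772 in P4 treated and 67975 to 80290 in P4 untreated libraries, and 16 supporting cell markers summed to 368259 to 605911, so that both cell types were represented in every library. With treatment at P1, 3 supporting cell markers were called, the connexin genes *Gjb2* and *Gjb6* higher and *Sox2* lower, and of 12 pillar and Deiters cell markers 1, *Lgr5*, was higher (log2 fold change 1.86, adjusted p = 0.00087 from limma). Of all genes, 0.261% were called higher and 0.0924% lower at P1. The paper names *Lgr5* as a Wnt target gene. At P4, 0 genes of either list were called by limma. At an unadjusted p under 0.05, 6 of the 16 supporting cell markers passed at P1 and 5 at P4, beside 12.2% and 11.6% of all genes. Of the 12 pillar and Deiters cell markers, 2 passed at P1 and 5 at P4, with median log2 fold changes of 0.22 and 0.41. At P1 against P4 in untreated libraries, 7 hair cell markers were called lower, and of the supporting cell markers 3 were higher and 7 lower, beside 10.5% and 9.38% of all genes. The part of hair cells and supporting cells in the levels of the 7 genes was not tested.

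Likeness was measured over the 11 libraries as the root mean square difference of log2 values centred on each gene's mean. The genes most like *Hes1* were *Gm21596* (0.20) and *Ncmap* (0.22), against an SD of 0.68 for *Hes1* itself. The nearest to *Heyl* were *Rabgap1l* (0.14) and *Plekhh1* (0.15), against an SD of 0.41. The nearest to *Hey1* were *Hdac5* and *Gnao1* (0.14 each), against 0.35. *Hey2* was nearest to *Zswim3* and *Sh3gl3* (0.12 each), *Nrarp* to *Tbc1d31* (0.08) and *Hif1a* (0.10), *Hes6* to *Selenoo* (0.06) and *Nr2f6* (0.07), and *Hes5* to *A930015D03Rik* (0.36) and *Gm2885* (0.38). These genes share libraries and were picked from 18400, so the values are descriptions.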

How the data were processed

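RNA of 12 samples was described and 11 libraries were in the table used here. The authors made libraries with the SMARTer V4 and ThruPLEX kits, used STAR 2.5.2b to align the single-end reads (mm10), then counted genes and scaled them with DESeq2. The deposited values are a score per gene, made by scaling each library with its size factor and rounding to whole numbers. The study's methods name featureCounts for quality control and Sailfish with tximport for quantification, and no source used here ties the values in the table to either. The authors excluded 1 sample for insufficient Cre activation. Since the values are not raw counts, no count model was used. The depth of single libraries was not at hand, as the paper gives reads per sample only as a range over all samples.

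Of 27755 entries, 1 with a repeated ID was left out. The log2(normalized count + 1) was fitted with limma 3.58.1 (eBayes with trend) under R 4.3.3, over 18400 genes with a mean of at least 10, and p-values were adjusted by Benjamini and Hochberg. Fold changes of low genes are understated on this scale. Each library was 1 pup, so replicates were biological. Exon lengths were the union of GENCODE M21 exons on GRCm38.

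The 7 genes and the gene lists were chosen with earlier results of these data known. Named were the 7 genes, up to 3 called genes of each pathway list and comparison with the smallest adjusted p, *Atoh1*, *Jag1*, *Dll1*, *Lfng*, *Notch1*, *Sox2*, *Xist* and *Ctnnb1*, the 2 most similar genes for each of the 7, and markers a result turned on. The rule also named 1 gene that is not reported here. The alternatives were other pseudocounts, filters, scalings, thresholds and spread models, a fit of only the groups compared, *Xist* as a covariate, the replicate number as a block and leaving out each library. Weights per library and the contrast averaged over ages were chosen later, with the data in view. The fit was tested on simulated data.

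Residuals of libraries with the same replicate number correlated at 0.115 to 0.136 between P1 and P4 untreated libraries. In the other comparisons they correlated at -0.0605 to 0.026. The main fit did not pair libraries by this number, and the replicate block was only an alternative. With that block, limma gave adjusted p-values between P1 and P4 untreated libraries of 0.00424 for *Hes1* and 0.0314 for *Hey1*. The sources used here do not give what the numbers stand for.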

Additional observations from a re-analysis of the deposited data

How the results depend on the processing

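Of 994 values of single genes under an alternative, 936 kept their direction and their side of the threshold, 29 lost a call, 10 gained one and 19 changed sign. For treatment at P1, the number of called genes went from 0 to 1, *Heyl*, with a minimum mean of 50, with median-of-ratios or quantile scaling and at an adjusted p under 0.1, and was 0 to 1 without single libraries. For treatment at P4 and for the interaction it was 0 in every alternative run. For age in untreated libraries it went from 2 to 1 with eBayes without trend or log2 *Xist* as a covariate, and was 1 to 3 without single libraries. For age in treated libraries it went from 2 to 1 with a pseudocount of 0.5, no minimum, eBayes without trend, quantile scaling or only the groups compared, to 0 with log2 *Xist*, and was 1 to 2 without single libraries. For treatment averaged over ages it went from 1 to 0 with eBayes without trend or the replicate block, to 2 at an adjusted p under 0.1 or with weights per library, and was 0 to 1 without single libraries. In the other comparisons the replicate block changed no call, and it left 2 called genes for age in untreated libraries. The causes were not tested.

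No value that changed sign was called. With log2 *Xist* as a covariate, *Hes1* at P4 turned to -0.33, *Hes5* between ages in treated libraries to -0.037, and the interactions of *Hey1* and *Nrarp* to 0.21 and 0.14. With the replicate block, *Heyl* between ages in treated libraries was -0.0033. Without single libraries, *Hes1* at P4 ranged from -0.11 to 0.21, *Heyl* and *Nrarp* between ages in treated libraries from -0.023 to 0.10 and from -0.074 to 0.11, and the interactions of *Hes5*, *Hey1* and *Hey2* from -0.70 to 0.72, from -0.18 to 0.066 and from -0.21 to 0.0043. The values carry no depth, and the intervals of *Hes5* span several-fold changes at both ages.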

Other observations

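In single libraries several of the 7 genes lay at the same end of their group, a pattern noticed after the values were seen and not tested. The share of all tested genes that did so was not counted, so the pattern cannot be read as particular to the 7 genes. In P1 untreated replicate 2, 6 of the 7 genes were at the highest level of their group, with *Hes5* the exception, and in P1 treated replicate 2 it was 5 of 7, with *Hey2* and *Nrarp* the exceptions. In P1 treated replicate 1, 5 of 7 were the lowest. Red cell markers summed to 2429 normalized counts in P1 untreated replicate 2, against 12763 and 10807 in the other P1 untreated libraries, and to 3094 in P1 treated replicate 2, against 7960 and 11819. In P4 untreated replicate 2, where this sum was also the lowest of its group at 6083, 2 of the 7 genes were the highest and 2 the lowest.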
